A study of Mus musculus with 12 samples.

Results

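The genes described here encode the machinery that fuses vesicles with their target membranes. They were the protein-coding genes named Syt, Stx, Vamp, Snap, Cplx or Stxbp with a number, and Syn1, Syn2 and Syn3, in the gene name column of the H4K8ac peak annotation. The rule matched 58 of the 21627 protein-coding genes of the RefSeq table on chromosomes 1 to 19 and X: 17 synaptotagmins (Syt), 15 syntaxins (Stx), 8 Vamp genes, 6 Stxbp genes, 5 Snap genes, 4 complexins (Cplx) and 3 synapsins (Syn). At least 1 peak was assigned to 49 of them in some library, and none was assigned to the other 9. By what is generally known of them, 22 were classed as neuronal (synaptic vesicle release or the synapse), 21 as ubiquitous (trafficking used by most cells) and 15 as neither. Snap91 fell under the rule by its symbol but encodes a clathrin assembly protein.

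H4K8ac, acetylation of lysine 8 of histone H4, is a mark of active chromatin, and was mapped by chromatin immunoprecipitation and sequencing in oligodendrocyte progenitor cells (OPCs), the glial cells that give rise to myelinating oligodendrocytes. The comparison asked how the mark differs between neonatal and adult OPCs. Both ages carried the PdgfrαH2BEGFP reporter, a nuclear green fluorescent protein driven from the Pdgfra locus, and were sorted from forebrain at postnatal day 5 (P5, 3 libraries) or 60 (P60, 3 libraries), with an anti-H4K8ac antibody from Active Motif. No other treatment or allele was labelled, the sex and the number of mice behind a library were not labelled, and the 6 input libraries were not analysed here.

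Vesicle fusion is driven by SNARE proteins: a Vamp protein on the vesicle winds together with a syntaxin and a Snap25-type protein on the target membrane. Stxbp proteins of the Munc18 type guide this assembly, synaptotagmins trigger fusion when they bind calcium, complexins hold the assembled complex ready, and synapsins tether vesicles in the reserve pool. Neurons use dedicated members (Vamp2, Stx1a, Snap25, Syt1) where most other cells use relatives such as Vamp3, Stx4a and Snap23. OPCs receive synapses from neurons and are known to transcribe some of the genes of both kinds.

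The lists held 9097, 31189 and 7353 peaks in the neonatal and 72278, 72661 and 77002 in the adult libraries, numbered as replicates 1, 2 and 3, and neonatal replicate 2 stood apart from the other neonatal libraries in that number. Read numbers were not analysed here, so the depth behind each list is unknown. Counts were therefore also made among the 7353 strongest peaks of each list, the length of the shortest. For neonatal replicate 3 this is the whole list, so every peak there, however weak, counts among the strongest. Of 10 OPC marker genes, 9, 10 and 8 in the neonatal and 8, 9 and 8 in the adult libraries had a promoter peak. Among them, Olig1, Olig2, Sox10, Pdgfra, Cspg4 and Sox6 had it in all 6 libraries. Gpr17 and Ptprz1 had it in 3 neonatal and 2 adult libraries, Lhfpl3 in 2 and 1, and Neu4 in 1 and 2. Of those marked in all 6, Olig1, Olig2 and Sox10 were among the strongest 7353 peaks in 3 adult libraries. Cspg4 was so in 1 adult library, and Pdgfra and Sox6 in 0. Of 10 myelin genes, 2, 4 and 1 in the neonatal and 10, 10 and 10 in the adult libraries had a promoter peak. The counts were 0, 6 and 1 in the neonatal and 5, 4 and 4 in the adult libraries for 10 neuronal genes outside the fusion machinery, 4, 8 and 2 in the neonatal and 6, 4 and 7 in the adult libraries for 10 astrocyte genes, and 0, 0 and 0 in the neonatal and 1, 1 and 1 in the adult libraries for 10 microglial genes. Among the strongest 7353 peaks, the OPC markers stood at 9, 7 and 8 in the neonatal and 4, 4 and 4 in the adult libraries, the myelin genes at 2, 2 and 1 in the neonatal and 7, 9 and 8 in the adult libraries, and the astrocyte genes at 4, 2 and 2 in the neonatal and 0, 1 and 1 in the adult libraries. The neuronal genes outside the fusion machinery stood there at 0, 0 and 1 in the neonatal and 0, 1 and 0 in the adult libraries. Myelin gene marking, and among the strongest peaks OPC and astrocyte gene marking, thus moved with age beside every difference below, and its part in them was not tested. Among the neuronal markers, Nefl, Slc17a6 and Neurod6 had no promoter peak in any library. Rbfox3, Tubb3 and Slc17a7 had one in all 3 adult libraries, and Camk2a, Nefm, Gad1 and Gad2 had one in some library. In such bulk samples, fewer cells of a type with the mark and less of the mark in each cell cannot be told apart.

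The adult lists marked more fusion gene promoters than the neonatal lists on average, and equally many once lists of equal length were compared. Of the 58 genes, 20, 45 and 18 in the neonatal and 42, 39 and 39 in the adult libraries had a promoter peak, that is, a peak annotated by the authors within 3000 bp of a transcription start. The mean was 27.7 ± 15.04 (SD, n = 3) in neonatal and 40 ± 1.73 (SD, n = 3) in adult libraries. The difference of 12.3 genes did not exceed the neonatal spread, since neonatal replicate 2 held more than any adult library. Over all protein-coding genes the share with a promoter peak was 26.4, 53.2 and 23.5 percent in the neonatal and 56.3, 54.4 and 55.2 in the adult libraries. Over the fusion genes it was 34.5, 77.6 and 31 percent in the neonatal and 72.4, 67.2 and 67.2 in the adult libraries. Among the strongest 7353 peaks of each list, 13, 21 and 18 fusion genes in the neonatal and 18, 16 and 18 in the adult libraries had a promoter peak, and the means of the ages were equal at 17.3. Over all protein-coding genes the share among the strongest was likewise close between the ages, 23.02, 27.2 and 23.5 percent in the neonatal and 26.4, 23.1 and 23.9 in the adult libraries.

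The kinds of gene behind this equal number differed by age. Among the strongest peaks, promoter peaks lay at 6, 9 and 8 of the 21 ubiquitous genes in the neonatal and 10, 10 and 11 in the adult libraries, and every adult library held more of them than every neonatal library. At the 22 neuronal genes the numbers were 6, 9 and 7 in the neonatal and 6, 5 and 6 in the adult libraries, with no adult library above a neonatal one. As shares, the ubiquitous genes stood at 28.6, 42.9 and 38.1 percent in the neonatal and 47.6, 47.6 and 52.4 in the adult libraries, and the neuronal genes at 27.3, 40.9 and 31.8 percent in the neonatal and 27.3, 22.7 and 27.3 in the adult libraries, beside the shares over all genes given above. The share of ubiquitous genes minus the share of neuronal genes was 1.3, 1.95 and 6.28 percentage points in the neonatal and 20.3, 24.9 and 25.1 in the adult libraries among the strongest peaks, so the ages did not overlap. With all peaks it was 15.8, 8.44 and 6.28 points in the neonatal and 26.8, 26.8 and 31.4 in the adult libraries, again without overlap. No p-value was computed over the genes of a class, since they were chosen by name with earlier results known. Counting any peak within 3000 bp of the gene start, whatever gene it was assigned to, gave -7.79, 6.93 and 1.73 points in the neonatal and 25.1, 20.3 and 20.6 in the adult libraries among the strongest peaks. By position, the ages did not overlap in this difference, while the number of ubiquitous genes by itself then overlapped between the ages.

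**Figure D1:**
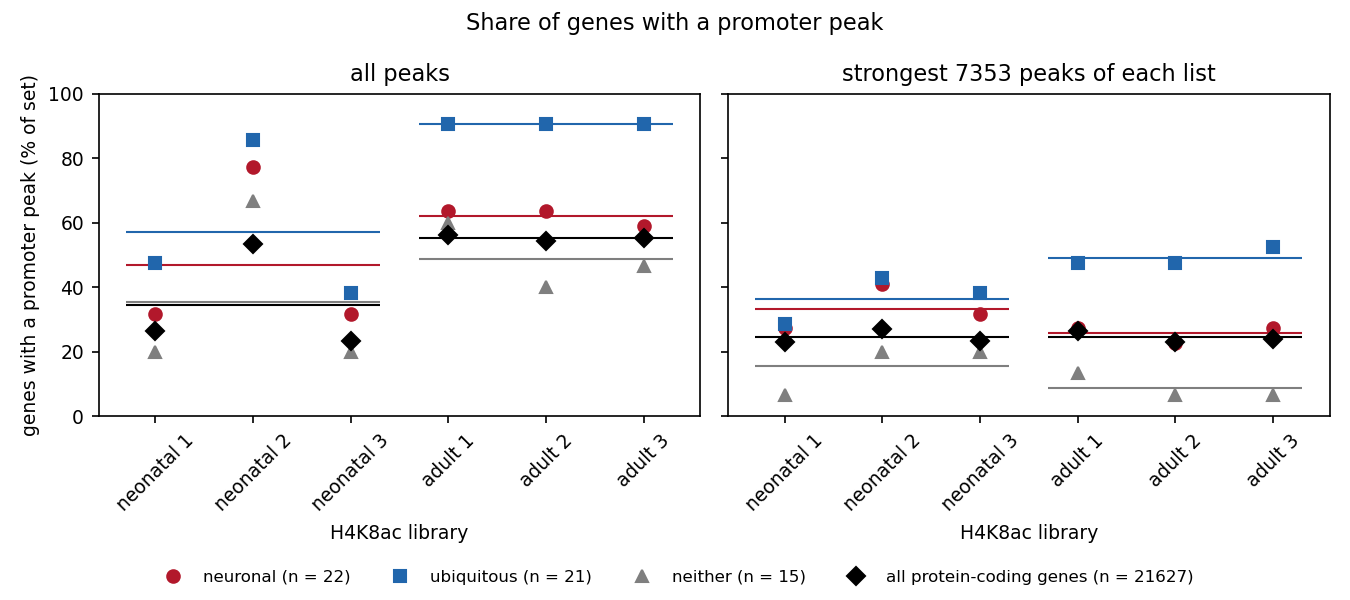
Share of genes with a promoter peak in each H4K8ac library (y axis, percent of the set) for neuronal, ubiquitous and other fusion genes and all 21627 protein-coding genes, with all peaks (left) and with the strongest 7353 peaks of each list (right); points are libraries and lines the means of 3. Among the strongest peaks the adult ubiquitous share lies between 47.6% and 52.4% and the adult neuronal share between 22.7% and 27.3%, while the classes lie closer together in neonatal libraries.

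With all peaks, 10, 18 and 8 ubiquitous genes in the neonatal and 19, 19 and 19 in the adult libraries had a promoter peak. The neuronal genes with a promoter peak numbered 7, 17 and 7 in the neonatal and 14, 14 and 13 in the adult libraries. The 19 marked ubiquitous genes in adult libraries were 90.5% of the class, and the remaining pair was Snap29 and Vamp7. Of the 15 genes in neither class, 3, 10 and 3 in the neonatal and 9, 6 and 7 in the adult libraries had a promoter peak. At the length of the neonatal replicate 2 list, 31189 peaks, a comparison added after the data were seen, there were 45 in neonatal replicate 2 and 35, 32 and 34 in the adult libraries, counted as fusion genes with a promoter peak. Neuronal genes then numbered 17 in neonatal replicate 2 and 12, 11 and 12 in the adult libraries, and ubiquitous genes 18 in neonatal replicate 2 and 19, 18 and 18 in the adult libraries. At that length neonatal replicate 2 thus held more neuronal genes than any adult library and no more ubiquitous ones, but it is 1 library. As shares, the fusion genes stood at 77.6 percent in neonatal replicate 2 and 60.3, 55.2 and 58.6 in the adult libraries. Over all protein-coding genes the share was 53.2 percent in neonatal replicate 2 and 49.1, 46.5 and 48.0 in the adult libraries. Neonatal replicate 2 thus exceeded every adult library over all genes too.

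Presence over the 6 libraries sorted the genes further. A promoter peak was present in all 6 libraries at 10 genes (17.2% of 58, against 17.5% of all genes): Vamp1, Vamp2, Vamp3, Vamp4, Stx7, Stx16, Stx17, Stxbp5, Syn3 and Snap91. Only Cplx3 and Snap23 had it in 3 adult and 0 neonatal libraries, against 4.73% of all genes, and no fusion gene had the reverse, against 0.139% of all genes. A further 11 genes had it in 3 adult libraries and in neonatal replicate 2 alone: Stx1a, Stx5a, Stx8, Stx11, Snap47, Stxbp2, Stxbp6, Syn1, Syt3, Vamp8 and Vamp9. Without neonatal replicate 2 the adult-only count was therefore 13. No share over all genes is given for the patterns of these 11 or 13 genes, so the counts are not read as a result about fusion genes. The 13 cannot be set beside the 4.73%, which is for all 6 libraries. Cplx1, Syt2, Syt5 and Syt8 had a promoter peak in neonatal replicate 2 and in no adult library.

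Genes marked in more neonatal than adult libraries were few and rested largely on neonatal replicate 2. They were 6 of the 48 genes with any promoter peak (12.5%, against 6.1% of all genes with a promoter peak): Cplx1, Syt2, Syt5, Syt7, Syt8 and Syt14. None was in the ubiquitous class. Without neonatal replicate 2, and by the share of libraries of each age, 2 of 44 genes remained (4.55%, against 2.84% of all such genes), Syt7 and Syt14. The opposite, more adult than neonatal libraries, held for 29 of the 48 genes (60.4%, against 62.7% of all such genes), with 14 of 19 ubiquitous and 8 of 18 neuronal genes. Among the strongest peaks only Stxbp6 was marked in 3 adult and 0 neonatal libraries, against 1.59% of all genes. Syn3 and Syt7 were marked there in 3 neonatal and 0 adult libraries, against 1.86% of all genes.

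**Figure D2:**
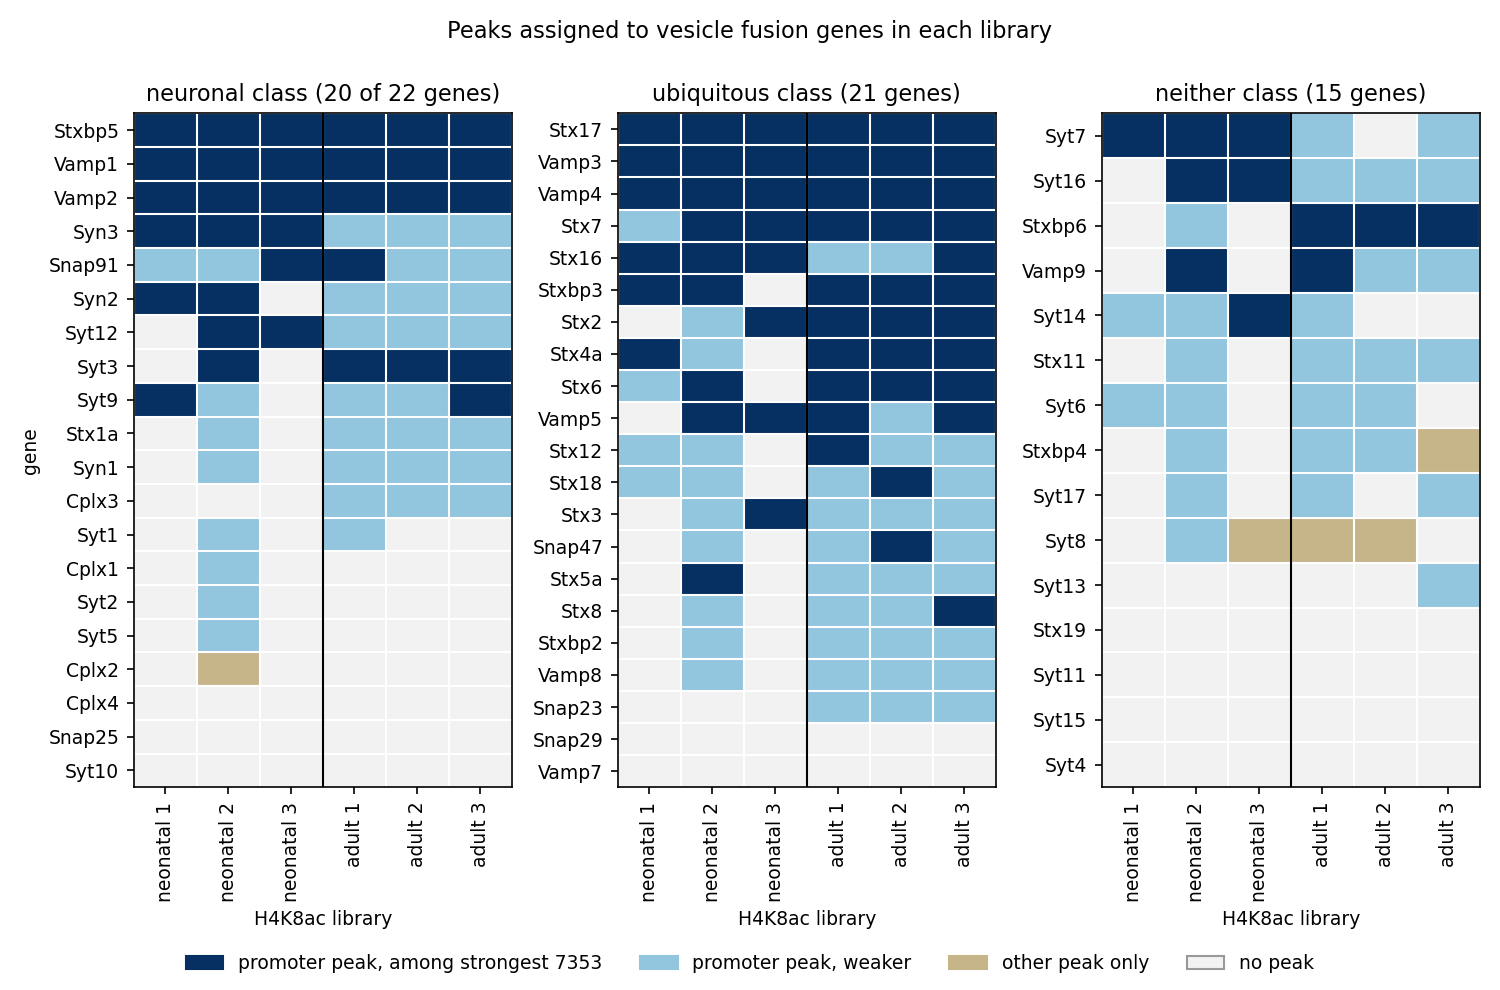
Peaks assigned to each fusion gene but 2 of the neuronal class (rows, by class) in each of the 6 libraries (columns, neonatal left of the black line); dark blue is a promoter peak among the strongest 7353 of the list, light blue a weaker promoter peak, tan a peak of another kind only and grey no peak. Of the ubiquitous genes 19 of 21 are blue in every adult column, while 4 neuronal genes have no promoter peak in any library.

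At least 1 promoter peak was assigned in some library to 48 of the 58 fusion genes and to 13454 of the 21627 protein-coding genes. Absence was thus less frequent among fusion genes than over all genes. No promoter peak was assigned in any library to 10 genes. They were Snap25, Snap29, Stx19, Vamp7, Syt4, Syt10, Syt11, Syt15, Cplx2 and Cplx4. Snap25, the neuronal target-membrane SNARE, had 0 kb under peaks within the gene and 10 kb on each side in all 6 libraries. For Cplx2 and Snap29 the absence came from the assignment of peaks to genes: a peak lay within 3000 bp of the Cplx2 start in all 6 libraries and was assigned to Gm48623, and peaks at the Snap29 start were assigned to Pi4ka in neonatal replicate 2 and the 3 adult libraries. Vamp7 lies beyond the range of the lists, whose lowest start on chromosome X is 6047786.

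Promoter sequences are shown for 6 genes on which the results below turn: the adult-only Snap23, the neuronal syntaxin Stx1a beside the ubiquitous Stx6, the synapsin Syn1, the binding protein Stxbp6 and Syt1, the gene with a site higher in neonatal cells. Each is the 250 bases before the RefSeq start on GRCm38.p6, written from 5′ to 3′ on the strand of the gene. Capitals mark a GC box (GGGCGG), a cAMP response element (CRE, TGACGTCA), a CCAAT box (CCAAT) or an E-box (CACGTG), each searched on both strands, with overlapping matches kept. The windows were chr2:120567421-120567670 (plus strand), chr5:135023232-135023481 (plus strand), chr1:155158453-155158702 (plus strand), chrX:20920919-20921168 (minus strand), chr12:45074484-45074733 (minus strand) and chr10:109010976-109011225 (minus strand).
Snap23: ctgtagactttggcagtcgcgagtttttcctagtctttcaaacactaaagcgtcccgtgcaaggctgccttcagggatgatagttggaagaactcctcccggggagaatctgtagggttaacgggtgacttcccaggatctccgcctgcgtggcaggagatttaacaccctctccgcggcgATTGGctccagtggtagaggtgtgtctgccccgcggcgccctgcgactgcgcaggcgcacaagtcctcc
Stx1a: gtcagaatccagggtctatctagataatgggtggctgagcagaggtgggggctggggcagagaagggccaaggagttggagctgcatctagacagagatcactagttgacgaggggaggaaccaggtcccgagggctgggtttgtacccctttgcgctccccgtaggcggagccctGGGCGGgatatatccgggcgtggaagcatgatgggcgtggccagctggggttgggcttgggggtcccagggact
Stx6: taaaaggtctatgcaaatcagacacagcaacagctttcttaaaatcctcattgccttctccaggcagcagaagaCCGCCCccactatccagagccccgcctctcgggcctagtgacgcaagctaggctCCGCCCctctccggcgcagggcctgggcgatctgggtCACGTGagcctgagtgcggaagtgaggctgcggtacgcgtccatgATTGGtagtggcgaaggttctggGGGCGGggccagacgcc
Syn1: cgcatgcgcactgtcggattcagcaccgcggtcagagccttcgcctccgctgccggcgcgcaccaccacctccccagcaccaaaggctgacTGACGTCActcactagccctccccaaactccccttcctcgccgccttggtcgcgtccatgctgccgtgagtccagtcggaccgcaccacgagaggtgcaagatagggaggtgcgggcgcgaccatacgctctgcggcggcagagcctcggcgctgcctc
Stxbp6: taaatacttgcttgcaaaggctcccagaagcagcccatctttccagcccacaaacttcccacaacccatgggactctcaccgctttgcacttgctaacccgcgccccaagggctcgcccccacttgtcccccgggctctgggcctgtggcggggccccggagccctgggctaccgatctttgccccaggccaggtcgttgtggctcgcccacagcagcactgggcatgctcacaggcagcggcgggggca
Syt1: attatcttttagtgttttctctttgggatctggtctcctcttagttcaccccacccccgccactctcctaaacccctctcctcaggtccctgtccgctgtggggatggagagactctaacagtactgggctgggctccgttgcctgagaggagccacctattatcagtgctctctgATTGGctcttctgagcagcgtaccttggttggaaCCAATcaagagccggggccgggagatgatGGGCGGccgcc

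The Snap23 window held a CCAAT match from 69 to 65 bases before the start, and a peak overlapped it, with the 50 bases after the start included, in the 3 adult libraries alone. Stx1a held a GC box, and its window overlapped a peak in the 3 adult libraries alone. Stx6 held 3 GC boxes, a CCAAT match and an E-box, Syn1 a CRE from 159 to 152 bases before the start, and Stxbp6 no match to these motifs. The windows of Stx6, Syn1 and Stxbp6 overlapped a peak in neonatal replicate 2 and the 3 adult libraries. Syt1 held 2 CCAAT matches and a GC box, and no peak reached its window in any library.

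RefSeq promoters of 300 bases (250 before and 50 after the start) were matched for 44 of the 58 genes and 17273 genes in all. A GC box was present in 70.5% of the 44 promoters, in 71.4% of the 14 neuronal ones and in 46.9% of all 17273. The median GC content was 64.2% in the fusion genes and 56.3% in all genes. A TATA box (TATAAA) was present in 2.27% of the fusion gene promoters and 13.4% of all, and a CRE in 4.55% and 2.36%. The long motif RE1, bound by the repressor REST, was present in 0 of the 44 promoters and in 13 of 17273 (0.0753%). These are descriptions of letters in the windows.

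Among the vesicle SNAREs, promoter peaks lay at 4, 7 and 5 of 8 Vamp genes in the neonatal and 7, 7 and 7 in the adult libraries with all peaks, and at 4, 6 and 5 in the neonatal and 6, 4 and 5 in the adult libraries among the strongest. Vamp2, the vesicle SNARE of synaptic release, had its strongest promoter peak within the strongest 2.35, 1.1 and 34.4% of neonatal replicates 1, 2 and 3 and within the strongest 0.819, 0.505 and 0.132% of adult replicates 1, 2 and 3. It was the neuronal gene with the best median rank at both ages. Vamp3, its widely used relative, had its strongest promoter peak within the strongest 25, 9.69 and 29.2% of neonatal replicates 1, 2 and 3 and within the strongest 3.56, 3.5 and 2.31% of adult replicates 1, 2 and 3. A smaller percentage here means a stronger peak within its list, and since the lists differ in length these percentages describe each list and not a change.

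Vamp1, the close relative of Vamp2, had its strongest promoter peak within the strongest 65.3, 9.31 and 72.2% of neonatal replicates 1, 2 and 3 and within the strongest 6.77, 7.8 and 4.46% of adult replicates 1, 2 and 3. In neonatal replicate 2 and adult replicate 2 that peak lay beyond the end of Vamp1, at another annotated start, and overlapped Tapbpl. The strongest peak at the outer Vamp1 start lay within the strongest 21.5% of neonatal replicate 2 and 8.39% of adult replicate 2. Vamp4, a SNARE of the trans-Golgi network, had its strongest promoter peak within the strongest 31.4, 9.68 and 55.3% of neonatal replicates 1, 2 and 3 and within the strongest 0.762, 2.82 and 5.46% of adult replicates 1, 2 and 3. Vamp8, an endosomal SNARE, had it within the strongest 52.2% of neonatal replicate 2 alone and within the strongest 23, 36.4 and 31.9% of adult replicates 1, 2 and 3. Vamp5 was marked in 3 adult libraries and in neonatal replicates 2 and 3, and the windows of Vamp5 and Vamp8, neighbours on chromosome 6, overlap. The neuronal pair Vamp1 and Vamp2 and the ubiquitous pair Vamp3 and Vamp4 were thus all marked at both ages.

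Syntaxins, the target-membrane SNAREs, carried promoter peaks at 7, 14 and 5 of 15 genes in the neonatal and 13, 14 and 13 in the adult libraries. All 11 ubiquitous syntaxins were marked in every adult library, against 7, 11 and 5 in the neonatal libraries. Stx1a, a plasma membrane syntaxin of neurons, had its strongest promoter peak within the strongest 62.7% of neonatal replicate 2 alone and within the strongest 15.2, 55.9 and 20.7% of adult replicates 1, 2 and 3.

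Stx4a, the plasma membrane syntaxin of most cells, had its strongest promoter peak within the strongest 24.1% of neonatal replicate 1 and 44.9% of neonatal replicate 2 alone and within the strongest 6.77, 1.31 and 3.01% of adult replicates 1, 2 and 3. The peak in neonatal replicate 1 lay 16.2 kb before the outer Stx4a start, at another annotated start that overlaps a start of a gene of the neuronal class, and the outer Stx4a start itself had a peak in neonatal replicate 2 alone among the neonatal libraries. Peaks at that shared start were assigned to Stx4a in 5 libraries and so counted for the ubiquitous class, except in the comparison by position. Stx6, a syntaxin of the trans-Golgi network and endosomes, had its strongest promoter peak within the strongest 82.3% of neonatal replicate 1 and 20.5% of neonatal replicate 2 alone and within the strongest 2.79, 5.65 and 1.19% of adult replicates 1, 2 and 3. Stx17, the syntaxin of autophagosomes, had it within the strongest 43.8, 4.01 and 24% of neonatal replicates 1, 2 and 3 and within the strongest 4.42, 3.997 and 6.62% of adult replicates 1, 2 and 3. Stx16, a Golgi syntaxin, had it within the strongest 60.6, 18.4 and 55.4% of neonatal replicates 1, 2 and 3 and within the strongest 18.1, 17.3 and 9.23% of adult replicates 1, 2 and 3. Stx6 lay among the strongest 7353 peaks in all adult libraries and in neonatal replicate 2, whereas Stx17 lay among them in all 6.

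Stx7, a late endosomal syntaxin, had its strongest promoter peak within the strongest 91.7, 17.9 and 69.2% of neonatal replicates 1, 2 and 3 and within the strongest 8.78, 4.07 and 4.82% of adult replicates 1, 2 and 3. It fell among the strongest 7353 peaks in neonatal replicates 2 and 3 and the 3 adult libraries. The ubiquitous genes among the strongest in more adult than neonatal libraries were Stx2, Stx4a, Stx6, Stx7, Stx8, Stx12, Stx18, Stxbp3 and Snap47. Those so marked in more neonatal libraries were Stx3, Stx5a and Stx16. Of the 22 neuronal genes, Syt3 was among those so marked in more adult libraries, and Syn2, Syn3 and Syt12 were among those so marked in more neonatal libraries. In the authors' deposited table of differential sites, Stx3, Stx5a and Syn3 had promoter sites higher in adult cells. That table listed no promoter site for Stx16, Syn2 and Syt12. These lists name the genes behind the class shares among the strongest peaks and were not tested. No share over all genes is given for them, so they show no trait of a class.

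In the Snap family, the neuronal Snap25 was unmarked, while its broadly used relative Snap23 had its strongest promoter peak absent from the neonatal lists and within the strongest 31.5, 29.4 and 20.1% of adult replicates 1, 2 and 3. The Snap23 peaks were of middling strength, none among the 7353 strongest. Snap47 had its strongest promoter peak within the strongest 37.7% of neonatal replicate 2 alone and within the strongest 11.3, 8.62 and 11.3% of adult replicates 1, 2 and 3. A peak at its start was assigned to Jmjd4 in neonatal replicates 1 and 2. Snap91, the clathrin assembly gene, had its strongest promoter peak within the strongest 93.9, 26.2 and 56.9% of neonatal replicates 1, 2 and 3 and within the strongest 7.85, 10.7 and 12.3% of adult replicates 1, 2 and 3.

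The Munc18-type and other syntaxin binding genes had promoter peaks at 2, 6 and 2 of 6 genes in the neonatal and 6, 6 and 5 in the adult libraries. Stxbp3, the Munc18 protein of most cells, had its strongest promoter peak within the strongest 37% of neonatal replicate 1 and 16.5% of neonatal replicate 2 alone and within the strongest 7.05, 0.963 and 2.28% of adult replicates 1, 2 and 3. It was thus marked in every adult list and in 2 of 3 neonatal lists. Stxbp2, the Munc18 protein of secretory and blood cells, was marked in 3 adult libraries and neonatal replicate 2.

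Stxbp5 (tomosyn), an inhibitor of SNARE assembly, had its strongest promoter peak within the strongest 5.06, 1.33 and 33.2% of neonatal replicates 1, 2 and 3 and within the strongest 1.66, 1.7 and 1.31% of adult replicates 1, 2 and 3. Stxbp6 (amisyn), which binds syntaxin in place of a Vamp protein, had it within the strongest 65% of neonatal replicate 2 alone and within the strongest 0.441, 0.914 and 0.509% of adult replicates 1, 2 and 3. Stxbp5 was strong in every list, although less so in neonatal replicate 3, while Stxbp6 was absent or weak in the neonatal lists and near the top of each adult list. Peaks at the Stxbp4 start were assigned to Cox11 in all 6 libraries, and Stxbp4 itself had a promoter peak in neonatal replicate 2 and adult replicates 1 and 2.

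Synaptotagmins, the calcium sensors and their relatives, had promoter peaks at 4, 12 and 4 of 17 genes in the neonatal and 9, 5 and 7 in the adult libraries. The means differed by 0.333 genes, and by 3 genes without neonatal replicate 2. Among the strongest peaks the counts were 2, 4 and 4 in the neonatal and 1, 1 and 2 in the adult libraries. Syt1, the calcium sensor of fast release, had its strongest promoter peak within the strongest 61.4% of neonatal replicate 2 alone and within the strongest 91.2% of adult replicate 1 alone. Syt7, a slower calcium sensor with many uses, had it within the strongest 13.8, 3.55 and 59.7% of neonatal replicates 1, 2 and 3 and within the strongest 38.2% of adult replicate 1 and 67.4% of adult replicate 3 alone. Syt7 was the reverse of Stxbp6: among the strongest peaks in each neonatal list and in no adult list.

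Syt3 had its strongest promoter peak within the strongest 17.1% of neonatal replicate 2 alone and within the strongest 7.82, 6.73 and 3.77% of adult replicates 1, 2 and 3. Syt9 had it within the strongest 56.6% of neonatal replicate 1 and 41.6% of neonatal replicate 2 alone and within the strongest 12.3, 19 and 8.46% of adult replicates 1, 2 and 3. Syt14, which lacks calcium binding, was marked in 3 neonatal libraries and adult replicate 1, and its strongest promoter peak lay within the strongest 99.6, 36.2 and 98.5% of neonatal replicates 1, 2 and 3 and within the strongest 63.3% of adult replicate 1 alone. Syt16 was marked in 5 libraries, and among the strongest in neonatal replicates 2 and 3 only. Stx11, a syntaxin of immune cells in neither class, had its strongest promoter peak within the strongest 28.2% of neonatal replicate 2 alone and within the strongest 69.8, 97.1 and 30.2% of adult replicates 1, 2 and 3. Vamp9 had it within the strongest 23.5% of neonatal replicate 2 alone and within the strongest 7.8, 16.3 and 16.9% of adult replicates 1, 2 and 3. Syt11, a synaptotagmin that does not bind calcium and is made by many cells, had no peak in any library, and so did Syt10 and Syt15.

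Complexins, which clamp the assembled SNARE complex, had promoter peaks at 0, 1 and 0 of 4 genes in the neonatal and 1, 1 and 1 in the adult libraries. Cplx3, the complexin of retinal ribbon synapses and some cortical neurons, had its strongest promoter peak absent from the neonatal lists and within the strongest 48, 22.8 and 12% of adult replicates 1, 2 and 3. Those peaks lay 3.91 to 4.09 kb inside the gene, at another annotated start, and Cplx3 had further peaks over its 3′ end. Cplx1 had a promoter peak in neonatal replicate 2 alone, within the strongest 85.4% of that list.

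Synapsins were marked at 2, 3 and 1 of 3 genes in the neonatal and 3, 3 and 3 in the adult libraries. Among the strongest peaks the counts were 2, 2 and 1 in the neonatal and 0, 0 and 0 in the adult libraries, so no synapsin promoter reached the strongest 7353 in adult cells. Syn1, the main synapsin of mature terminals, had its strongest promoter peak within the strongest 49.9% of neonatal replicate 2 alone and within the strongest 19.1, 20.3 and 22.4% of adult replicates 1, 2 and 3. Syn2 had it within the strongest 35.6% of neonatal replicate 1 and 8.49% of neonatal replicate 2 alone and within the strongest 14.3, 20.01 and 19.5% of adult replicates 1, 2 and 3. Syn3, expressed early in neuronal development, had it within the strongest 16.4, 13.2 and 63.8% of neonatal replicates 1, 2 and 3 and within the strongest 16.9, 24.7 and 10.5% of adult replicates 1, 2 and 3. Syn3 was marked at its promoter in every library, and was the only synapsin so marked.

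Peaks away from promoters were found mostly in the adult lists. Fusion genes had 0, 9 and 1 such peaks in the neonatal and 47, 44 and 56 in the adult libraries. Their promoter peaks numbered 20, 67 and 19 in the neonatal and 82, 79 and 77 in the adult libraries. The means of the non-promoter peaks were 3.33 ± 4.93 (SD, n = 3) and 49 ± 6.24 (SD, n = 3), a difference of 45.7 peaks larger than the spread within either age. Promoter peaks were 2.696 times as many in adult as in neonatal libraries (ratio of geometric means). Introns held 0, 3 and 0 peaks in the neonatal and 33, 28 and 42 in the adult libraries, and distal intergenic sequence 0, 5 and 1 in the neonatal and 9, 9 and 8 in the adult libraries. Among the strongest 7353 peaks of each list the difference in non-promoter peaks was 0.333. With all peaks and over all protein-coding genes, promoter peaks numbered 6977, 18059 and 5917 in the neonatal and 25765, 25246 and 24898 in the adult libraries. Their non-promoter peaks numbered 701, 5174 and 416 in the neonatal and 23244, 23349 and 25991 in the adult libraries. Of all peaks in each list, introns held 6.67, 15.5 and 4.64 percent in the neonatal and 33.5, 33.9 and 36.1 in the adult libraries. The adult rise was thus not particular to fusion genes.

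By assigned gene, fusion genes as a set had fewer non-promoter peaks for their length than all genes. These counts include distal intergenic peaks and leave out peaks inside a member that were assigned to another gene, as inside Syn3. In adult replicates 1, 2 and 3 there were 0.111, 0.104 and 0.132 non-promoter peaks per 10 kb of fusion gene, against 0.222, 0.223 and 0.248 over all genes. Ubiquitous members had 0.203, 0.191 and 0.338, neuronal members 0.0925, 0.0878 and 0.0878 and those in neither class 0.0758, 0.0674 and 0.0590. The ubiquitous class was thus below all genes in adult replicates 1 and 2 and above them in adult replicate 3. A peak of this kind was present in any adult library at 27.6% of the fusion genes and 27.1% of all genes. Promoters made up 100, 88.2 and 95 percent of fusion gene peaks in the neonatal and 63.6, 64.2 and 57.9 in the adult libraries, and 85.2, 67.5 and 88.8 percent of all peaks in the neonatal and 43.9, 43.1 and 40.4 in the adult libraries.

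Most of these peaks belonged to a handful of genes. Syn3 had 0, 0 and 0 non-promoter peaks in the neonatal and 16, 14 and 18 in the adult libraries. Stx18, a syntaxin of the endoplasmic reticulum, had 0, 0 and 0 in the neonatal and 6, 6 and 8 in the adult libraries. Stxbp6 had 0, 0 and 0 in the neonatal and 6, 6 and 5 in the adult libraries. All 3 genes had none in neonatal cells. Stx17 had 0, 0 and 0 in the neonatal and 4, 4 and 6 in the adult libraries, all between 14.4 and 22.7 kb upstream of its start, and Stx6 had 0, 0 and 0 in the neonatal and 4, 3 and 3 in the adult libraries. Neither gene had any in a neonatal library.

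By family, the syntaxins had 0, 0 and 0 such peaks in the neonatal and 14, 14 and 21 in the adult libraries, and the synapsins 0, 0 and 0 in the neonatal and 16, 14 and 18 in the adult libraries. The Stxbp family had 0, 1 and 0 in the neonatal and 10, 9 and 12 in the adult libraries. Syn3 alone held all of the synapsin peaks of this kind. The Vamp family had 0, 0 and 0 in the neonatal and 2, 2 and 4 in the adult libraries, the complexins 0, 1 and 0 in the neonatal and 2, 3 and 1 in the adult libraries and the Snap family 0, 2 and 0 in the neonatal and 0, 0 and 0 in the adult libraries. The synaptotagmins had 0, 5 and 1 in the neonatal and 3, 2 and 0 in the adult libraries, with the most in neonatal replicate 2.

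Syn3 is a gene of 450.2 kb that contains Timp3, an inhibitor of matrix metalloproteinases, within its introns. Between the ends of Syn3, the lists assigned 1, 3 and 1 neonatal and 22, 22 and 25 adult peaks to Syn3, and 2, 7 and 0 neonatal and 23, 29 and 31 adult peaks to Timp3. The Syn3 peaks away from promoters fell mainly in a group 35.1 to 46.6 kb from the start and another 436.3 to 444.1 kb from it. Peaks assigned to Syn3 covered 0.461, 1.41 and 0.337 kb in the neonatal and 11.3, 12.3 and 18.8 in the adult libraries. Those assigned to Stx6 covered 0.188, 0.494 and 0 kb in the neonatal and 5.94, 6.99 and 9.26 in the adult libraries, mostly at the 3′ end of the gene.

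**Figure D3:**
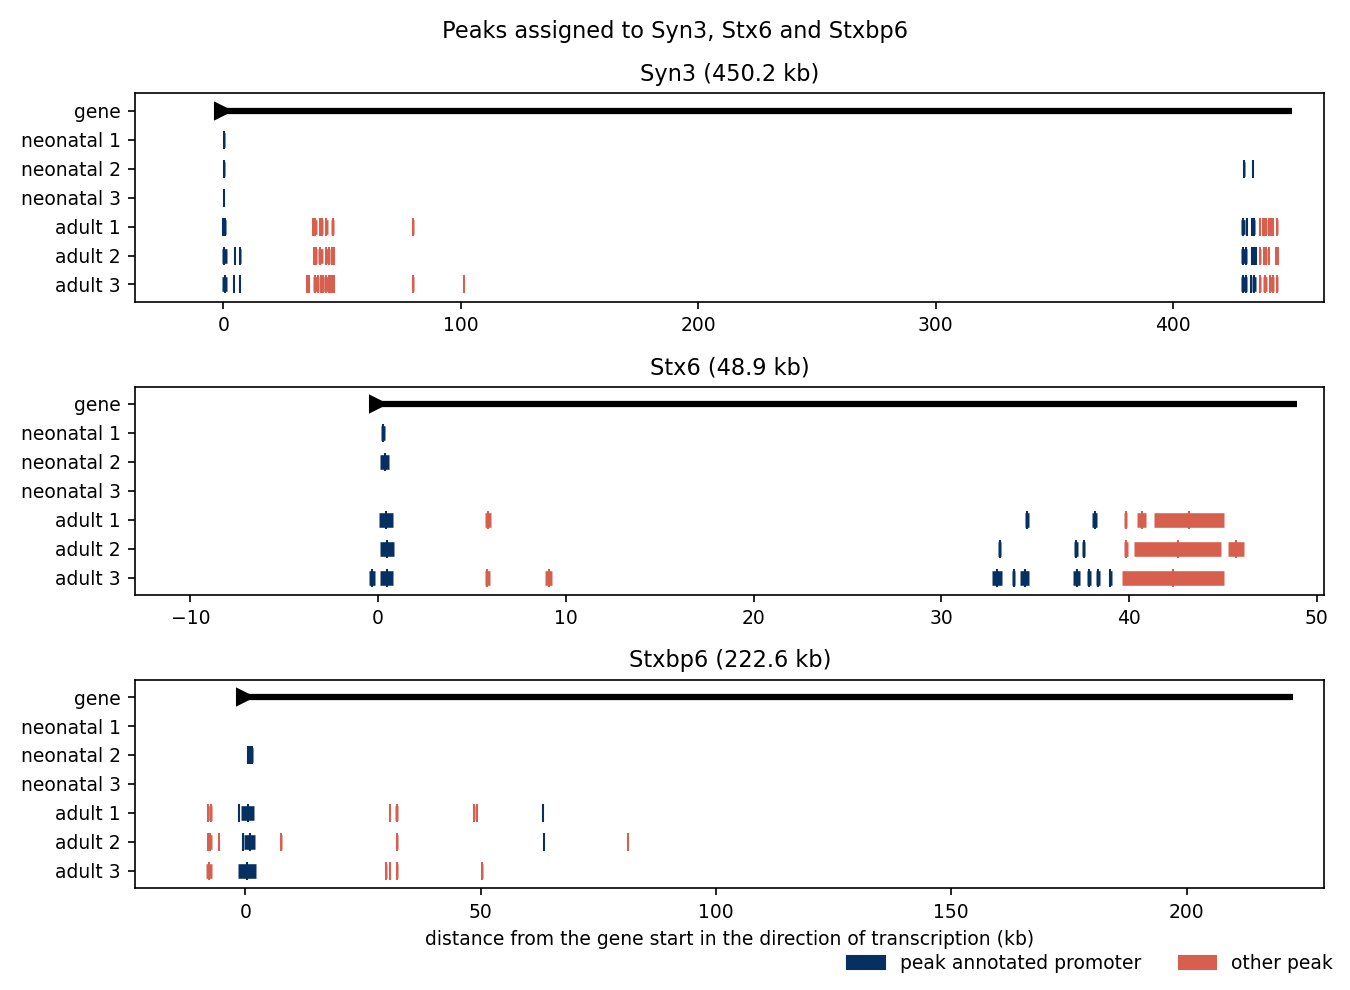
Peaks assigned to Syn3, Stx6 and Stxbp6 in each library (rows), by distance from the gene start in the direction of transcription (x axis, kb); blue bars are peaks annotated as promoter, which includes other annotated starts inside the gene, red bars are other peaks, and the black line is the gene. Red bars appear in the 3 adult rows of each gene and in no neonatal row, and the Syn3 peaks form groups near the start, 35.1 to 46.6 kb inside and near the end.

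The bases under peaks within each gene and 10 kb on each side, counted whatever gene a peak was assigned to, were compared per gene with an exact two-sided permutation test. With 3 against 3 libraries the smallest p-value is 0.1, and the smallest Benjamini-Hochberg adjusted p over 21627 genes was 0.182, so no gene could pass 0.05. More bases in every adult than in every neonatal library were found at 32 of 58 fusion genes (55.2%, against 54.8% of all genes). This was 18 of 21 ubiquitous genes (85.7%), 11 of 22 neuronal genes (50%) and 3 of 15 in neither class (20%). No fusion gene had fewer bases in every adult library, against 0.102% of all genes. The share over the whole family was close to that of all genes, while the classes lay on either side of it.

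Syn3 had the most, with 1.22, 5.31 and 0.6 kb in the neonatal and 27.8, 34.4 and 48.9 in the adult libraries, which includes the peaks of Timp3. Stx6 had 0.188, 1.75 and 0 kb in the neonatal and 14.4, 15.8 and 21.9 in the adult libraries, and the peaks assigned to Stx6 itself covered 5.94, 6.99 and 9.26 kb in the adult libraries. Vamp2 had 0.81, 2.62 and 0.572 kb in the neonatal and 7.64, 7.74 and 8.81 in the adult libraries, of which the peaks assigned to Vamp2 itself covered 2.16, 2.34 and 3.12 kb in the adult libraries. In each of these 3 genes every adult library exceeded every neonatal one, and so it was at Syt3, which had 0, 1.48 and 0 kb in the neonatal and 7.41, 6.98 and 10.7 in the adult libraries. The peaks assigned to Syt3 itself covered 2.29, 2.32 and 2.9 kb of these in the adult libraries. Most of the adult bases at Stx6, Vamp2 and Syt3 thus lay under peaks assigned to other genes. Syn1 had 0, 0.532 and 0 kb in the neonatal and 0.366, 0.518 and 1.23 in the adult libraries. Syn2 had 0.57, 2.35 and 0.422 kb in the neonatal and 1.05, 1.69 and 0.962 in the adult libraries. Syt7 had 0.454, 2.16 and 0.263 kb in the neonatal and 0.896, 0 and 0.282 in the adult libraries. At Syn1, Syn2 and Syt7 the ages overlapped, and neonatal replicate 2 had the most bases of any library at Syn2 and Syt7.

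**Figure D4:**
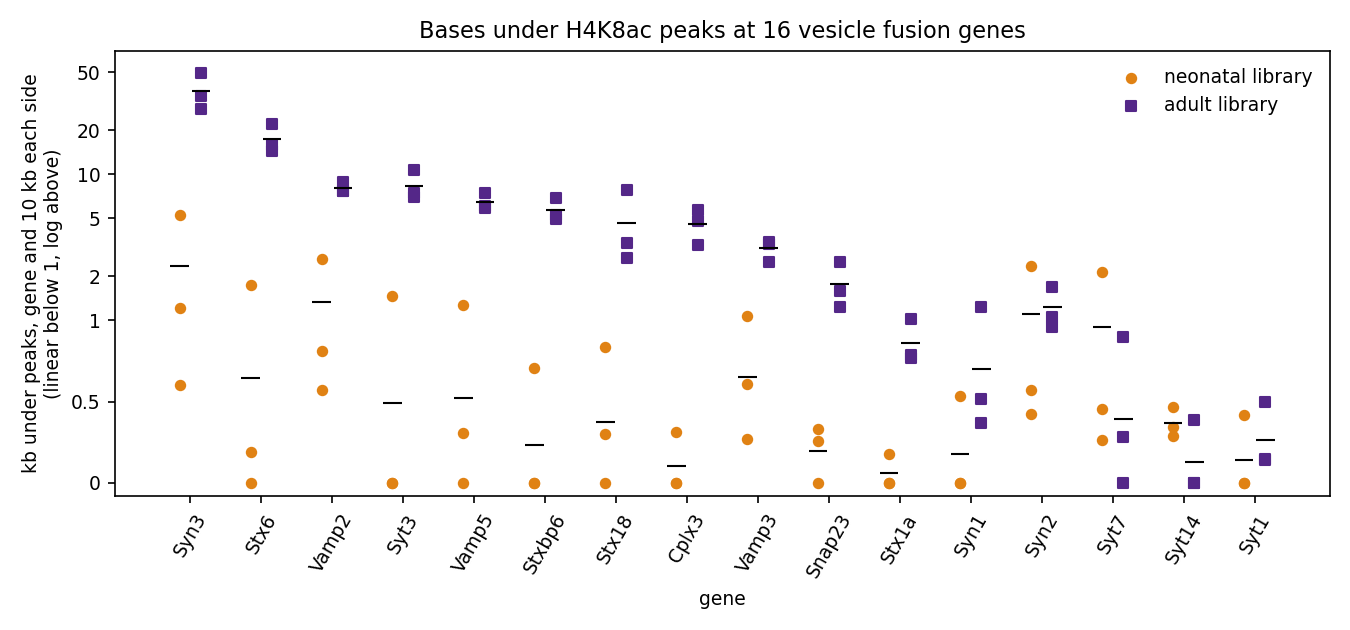
Bases under peaks within the gene and 10 kb on each side (y axis, kb, linear below 1 and logarithmic above) at 16 fusion genes, with neonatal libraries as orange circles, adult libraries as purple squares and the mean of 3 as a black bar. From Syn3 to Stx1a each adult library lies above each neonatal one, whereas the ages overlap at Syn1, Syn2, Syt7, Syt14 and Syt1.

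The authors' deposited table of differential sites gave a log2 fold change per site, read here as adult over neonatal. Of the 80 sites that the authors' deposited table listed at fusion genes, 79 were higher in adult cells (98.8%, against 99.5% of its 29854 sites at all protein-coding genes) and 1 was lower. A promoter site with a gain in adult cells appeared in the authors' deposited table for 30 of the 48 fusion genes with a promoter peak in any library (62.5%, against 71.5% of all such genes). By class, the authors' deposited table listed such a site for 18 of 19 ubiquitous genes, 10 of 18 neuronal genes and 2 of 11 in neither class. The authors' deposited table held a promoter site with a loss in adult cells for 1 of the 48 genes, against 0.788% of all such genes.

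The size of the listed changes was close to that at other genes. Taking each gene's most significant promoter site in the authors' deposited table, the median log2 fold change was 1.56 over 31 fusion genes and 1.69 over 9719 genes in all. The neuronal median in the authors' deposited table was 1.65 over 11 genes and the ubiquitous median 1.55 over 18. All listed promoter sites of fusion genes in the authors' deposited table, 51 in number, had a median of 1.70, and the 29 other sites a median of 2.78. These medians rest on listed sites alone, so members without a listed site do not enter them.

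Among the larger promoter changes, Stx6 had promoter sites of 3.73 (adjusted p = 3.79e-05), 3.51 (adjusted p = 6.75e-05) and 3.11 (adjusted p = 0.000287) in the authors' deposited table, all at starts inside the gene. Its outer start had 1.76 (adjusted p = 0.000554) in the authors' deposited table. Snap23 followed with 3.46 (adjusted p = 3.35e-05) in the authors' deposited table.

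Syt1 had the change in the other direction, with -1.97 (adjusted p = 0.0458) at chr10:109010555-109010955 in the authors' deposited table. The Syt1 site overlapped a peak in neonatal replicate 2 and a weaker peak in adult replicate 1, and in no other list. Among the adult-higher promoter sites, those with low values in the authors' deposited table included Syn3 at its outer start with 0.90 (adjusted p = 0.0394), Stx3 with 1.15 (adjusted p = 0.0109) and Vamp9 with 1.16 (adjusted p = 0.00852). Syt7 and Snap25 had no listed site in the authors' deposited table.

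Between relatives, the authors' deposited table gave Vamp2 1.51 (adjusted p = 0.00234) and Vamp3 1.49 (adjusted p = 0.000792) at the start of each gene. For the syntaxins, the authors' deposited table gave Stx1a 1.65 (adjusted p = 0.00121) and Stx4a 2.34 (adjusted p = 1.89e-07). Stxbp3 had 1.70 (adjusted p = 0.000282) at its start in the authors' deposited table. Differences between relatives were not tested, as the table holds no values per library. Outside promoters, the largest values in the authors' deposited table were 4.72 (adjusted p = 7.87e-05) in an intron of Stx18 and 4.04 (adjusted p = 6.84e-06) 9.80 to 10.0 kb before the Vamp3 start, where its peaks lie, inside the neighbouring gene Camta1.

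**Figure D5:**
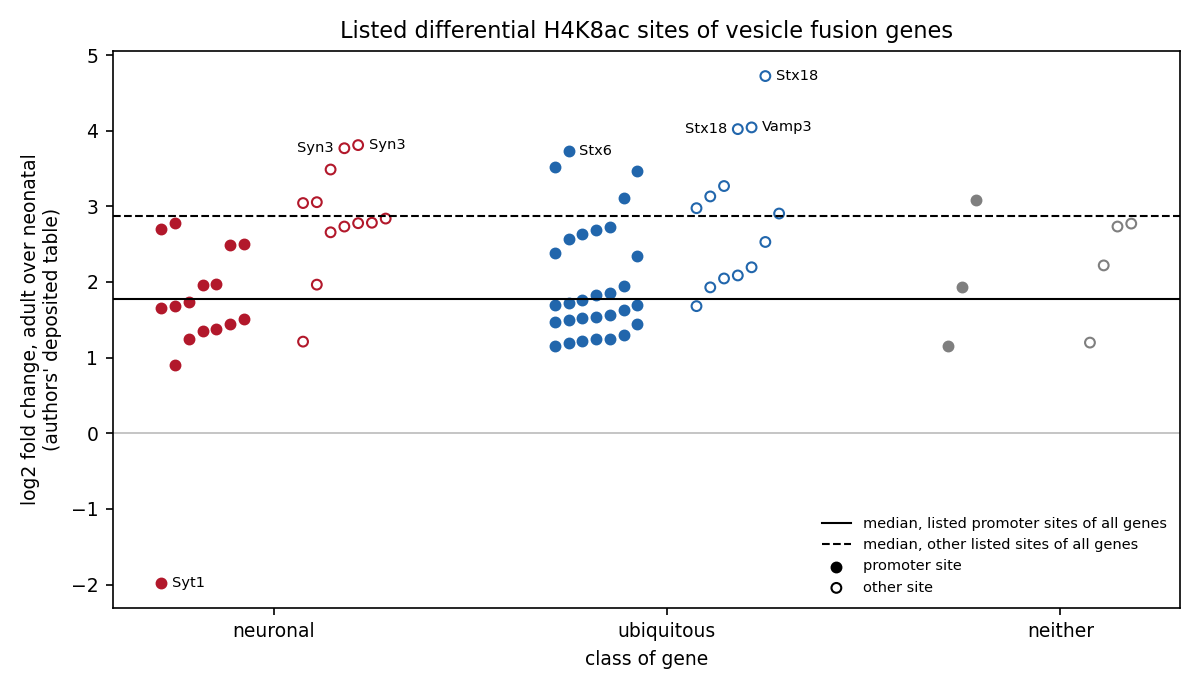
Log2 fold change, adult over neonatal, of the sites listed for fusion genes in the authors' deposited table (y axis; 2 genes of the neuronal class are not drawn), by class of gene (x axis), with promoter sites filled and other sites open; horizontal lines are the medians of all listed promoter sites (solid) and all other listed sites (dashed) of protein-coding genes. All points but Syt1 lie above 0.

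The rest of the fusion pathway was counted in the same way over 55 genes outside the rule. Of these, 20, 44 and 15 in the neonatal and 46, 45 and 45 in the adult libraries had a promoter peak. As shares these were 36.4, 80 and 27.3 percent in the neonatal and 83.6, 81.8 and 81.8 in the adult libraries, beside the shares over all genes given at the outset. Among the strongest peaks the numbers were 19, 22 and 15 in the neonatal and 20, 18 and 21 in the adult libraries. The authors' deposited table held a promoter gain in adult cells for 34 of the 49 with a promoter peak in any library (69.4%, against 71.5% of all such genes), and a promoter loss for 0. The authors' deposited table gave these 34 a median of 1.56 on the log2 scale, against 1.69 over all genes. The 4 disassembly genes, Nsf and its adaptors Napa, Napb and Napg, which recycle spent SNARE complexes, were all marked in every adult library and in neonatal replicate 2.

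Within that pathway the groups differed among the strongest peaks. The 18 priming and active zone genes, which dock vesicles at the release site, were marked at 7, 9 and 8 of 18 in the neonatal and 5, 3 and 2 in the adult libraries among the strongest peaks, so every neonatal library exceeded every adult one. As shares these were 38.9, 50 and 44.4 percent in the neonatal and 27.8, 16.7 and 11.1 in the adult libraries. Shares over all genes were 23.02, 27.2 and 23.5 percent in the neonatal and 26.4, 23.1 and 23.9 in the adult libraries, where the ages overlapped. Bsn and Rims2, scaffolds of the active zone, were among the strongest in 3 neonatal and 0 adult libraries, against 1.86% of all genes, although both had a promoter peak in all 6. The authors' deposited table ran the other way at Rims2, with a promoter site of 2.09 (adjusted p = 0.00442), and listed none for Bsn. The 9 exocyst genes, which tether vesicles in all cells, were marked at 2, 3 and 1 of 9 in the neonatal and 5, 6 and 6 in the adult libraries, so every adult library exceeded every neonatal one. As shares these were 22.2, 33.3 and 11.1 percent in the neonatal and 55.6, 66.7 and 66.7 in the adult libraries, beside the same shares over all genes. The other SNAREs, 11 genes of trafficking in most cells, stood at 6, 5 and 2 in the neonatal and 5, 4 and 6 in the adult libraries, where the ages overlapped. The disassembly genes stood at 2, 2 and 2 of 4 in the neonatal and 3, 3 and 4 in the adult libraries. The vesicle membrane genes stood at 2, 3 and 2 of 13 in the neonatal and 2, 2 and 3 in the adult libraries. With all peaks the priming and active zone genes stood at 7, 16 and 8 of 18 in the neonatal and 16, 15 and 14 in the adult libraries, where the ages overlapped.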

How the data were processed

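H4K8ac peak lists of 3 neonatal and 3 adult OPC libraries and a table of differential sites were used. Per the submitters' processing notes, reads were handled with Trim Galore, Bowtie2 2.4.5, SAMtools, deepTools, MACS2, DiffBind and ChIPseeker on GRCm38; the settings, and whether input entered peak calling, are not given in the sources used here. Per the file headers, the deposited lists give each peak a score, a fold enrichment (a linear ratio), and a −log10 p-value and −log10 q-value, with the nearest gene, all the authors' own. Peaks were called per library, and the largest q-values were 0.0427 to 0.0489. The authors' deposited site table holds, per site, log2 fold change, p-value and its adjusted form, without library values. It lists 43888 sites, 80.0% of the 54838 that its p-values imply were tested. Its direction was read from the lists: sites with positive values overlapped 85.0% to 96.7% of the time with adult and 10.3% to 27.8% with neonatal peaks. A site took the class and gene of the peak sharing most bases with it.

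From these files, counts were made per gene, family, class and library with Python 3.11.15, numpy 2.4.6, pandas 2.3.3 and scipy 1.17.1. The strongest peaks of a list were ranked by −log10 q-value, then fold. Bases under peaks were counted within the gene and 10 kb on each side, with RefSeq gene positions on GRCm38.p6, and compared by the exact two-sided permutation test with Benjamini-Hochberg adjustment over all genes. The procedure was tested on simulated data. Non-promoter peaks were compared by the difference of means where a ratio was planned, since neonatal replicate 1 had 0. Replicates are labelled as biological, and the number of reads behind a list is unknown, which limits what absence from it shows. No column of sample values was left unused (0). Alternatives were equal list lengths, q-value limits of 0.005, peaks within 1000 bp, assignment by position, gene bodies alone and leaving out each library.

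The members, classes and lists were chosen with earlier results of these data known. Genes named with values were those in 3 libraries of an age and 0 of the other, those without a promoter peak, the 5 of each class with the best median rank at each age, the 5 with the most non-promoter peaks, the 5 highest and 5 lowest listed promoter changes, all sites higher in neonatal cells, and pairs of neuronal and broadly used relatives. Others were named after their values were seen. 2 members of the neuronal class enter the counts but are not reported by name here. Sequences were taken from RefSeq.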

Additional observations from a re-analysis of the deposited data

How the results depend on the processing

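Differences below are adult minus neonatal means unless stated. Among the strongest 7353 peaks of each list, the difference in fusion genes with a promoter peak was 0 in place of 12.3, in neuronal genes -1.67 in place of 3.33 and in ubiquitous genes 2.67 in place of 7. At that length the promoter peak ratio was 1.08 in place of 2.696, the non-promoter difference 0.333 in place of 45.7, the adult-only count 1 in place of 2, and the count of genes with more bases in every adult library 15 in place of 32. The adult-only gene at that length was Stxbp6, so neither Cplx3 nor Snap23 was kept. At 31189 peaks, with neonatal replicate 2 alone against the adult libraries, an alternative chosen after seeing the data, the differences were -11.3 for all, -5.33 for neuronal and 0.333 for ubiquitous genes. Over all protein-coding genes, neonatal replicate 2 also held more at 31189 peaks, 53.2% against 49.1, 46.5 and 48.0% in the adult libraries. The adult-only count was 1 with promoter peaks within 1000 bp, where the adult peaks of Cplx3 drop out, and 1 by position. At an adjusted p under 0.005, the promoter sites higher in neonatal cells numbered 0 and those higher in adult cells covered 23 genes.

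Leaving out each library in turn gave differences of 7.5 to 21 for all fusion genes, 1.67 to 6.67 for neuronal and 5 to 10 for ubiquitous genes. It gave promoter peak ratios of 2.17 to 4.07, non-promoter differences of 42.2 to 48.5, adult-only counts of 2 to 13 and 32 to 40 genes with more bases in every adult library. The highest or lowest of these came without neonatal replicate 2 or 3 for most results. Numbered replicates did not deviate together (correlations over genes of 0.315, -0.360 and -0.362), and with a replicate block 32 genes had more bases in adult cells in every pair. Of 74 alternatives, 60 kept the direction and moved by less than the spread between libraries or, for counts of genes by pattern or listed site, stayed within 1.5 times. That spread is wide, and these include the differences without single neonatal libraries given above. Depth is unknown, so a gene outside a list is not shown to lack the mark.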

Other observations

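Several peaks near fusion genes bear another gene's name in the lists. Promoter peaks at annotated starts other than the outer start of the gene numbered 1, 9 and 0 in the neonatal and 20, 23 and 23 in the adult libraries. Peaks at the Stx5a start were in part assigned to 1700092M07Rik in neonatal replicate 2 and the 3 adult libraries. By position, the number of complexins with a peak within 3000 bp of the start was 1, 2 and 1 in the neonatal and 1, 1 and 1 in the adult libraries, since the Cplx2 start was marked in all 6 libraries and the adult Cplx3 peaks lie farther inside that gene.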
